A study of Mus musculus with 2 samples.

Results

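The genes described here are 8 of the 33696 genes counted in 2 single-cell RNA libraries of mouse lung: Ear1, Ear2, Fabp1, Gal, Hebp1, Tfec, Nol4l and Tc2n. They were chosen because earlier readings of the same counts placed them high in alveolar macrophages, so their enrichment in those cells, and the differences between the libraries shown here, are descriptions of the data that picked them. Their UMIs (unique molecular identifiers, each standing for 1 captured RNA molecule) were read in alveolar macrophages, taken as every cell in which at least 4 of the 8 genes Plet1, Krt79, Atp6v0d2, Flvcr2, Kcnip4, Mertk, Lpl and Chil3 were detected, and in the other myeloid cells of the lung.

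Alveolar macrophages live on the surface of the air spaces, where they take up and break down surfactant lipid and clear inhaled particles. Their identity depends on GM-CSF signalling and on the transcription factor PPARγ, and a large share of their genes serves lipid handling and lysosomes. Ear1 and Ear2 belong to the eosinophil-associated ribonucleases, secreted enzymes of the RNase A family that were named after their relatives in eosinophil granules but that are also made by lung macrophages. GFI1 is a zinc-finger transcriptional repressor of blood cells, best known for its role in making neutrophils and lymphocytes.

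Total lung cells of adult mice, aged 5 to 8 weeks, had been sorted as live cells without a lineage gate and sequenced from the 3′ end of the RNA. One library was labelled GFI1 KO, a germline deletion present in every cell of the animal, and the other was labelled WT. With 1 library per label, genotype, animal and library cannot be told apart, and every interval below is a 95% interval that covers counting error only.

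After the cell filters 10495 cells carried the label GFI1 KO and 19342 the label WT. Below, the value labelled GFI1 KO comes first wherever a pair of values is given. The files shared 74 cell barcodes. Gfi1 itself did not check the labels: its RNA stood at 3.6 CPM (UMIs per 1000000 UMIs; 95% interval 3.23 to 4) when all GFI1 KO-labelled cells were summed, and at 3.47 CPM (3.16 to 3.8) when all WT-labelled cells were. In alveolar macrophages it gave 50 UMIs (1.58 CPM) and 21 UMIs (0.334 CPM). The makeup of the libraries differed: 4227 and 276 cells were classical monocyte-like, 39 and 1214 neutrophil-like and 119 and 2541 endothelial-like.

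The rule found 2666 and 4849 alveolar macrophages, which made up 25.4% (24.6 to 26.2) of the GFI1 KO-labelled cells and 25.1% (24.5 to 25.7) of the WT-labelled ones. Most showed the whole panel, since 2083 and 3534 of them had all 8 markers. Surface tags were read beside the name: the median CD11c tag count was 1019.5 and 919 in these cells and that of CD11b was 5 and 5, whereas classical monocyte-like cells had medians of 6 and 9 for CD11c and 793 and 529 for CD11b. Cells just inside the rule, with 4 markers, numbered 15 and 95, and their Ear2 level was 90.5 CPM (GFI1 KO) and 158 CPM (WT). Cells just outside it, with 3 markers, numbered 100 and 432, and their Ear2 level was 43.5 and 50.3 CPM. Eosinophils, for which the Ear genes are named, were looked for by a panel of 6 genes. No cell was classed as eosinophil-like in either library. That class took cells outside the alveolar macrophage rule with more markers of this panel than of any other class panel. Of the alveolar macrophages of either library 0 held at least 4 of the 6 genes. Epx, the eosinophil peroxidase, gave 1 UMI (GFI1 KO) and 0 UMIs (WT) in the alveolar macrophages.

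Ear1 and Ear2 are near copies of each other, which bears on how their reads can be told apart. The 250 bases before their starts are shown because they show how close the pair is and how far another member of the family, Rnase2a, stands from it. The sequences are from the RefSeq promoter table on build GRCm38.p6, read 5′ to 3′ on the gene's strand, whereas the counts were made on GRCm39. Ear1 lies on the minus strand (chr14:43819640-43819889), Ear2 on the plus strand (chr14:44102404-44102653) and Rnase2a on the minus strand (chr14:51256113-51256362). In Ear1 and Rnase2a the capitals mark bases that differ from, or have no partner in, Ear2, and in Ear2 they mark those that differ from, or have no partner in, Ear1.
Ear1: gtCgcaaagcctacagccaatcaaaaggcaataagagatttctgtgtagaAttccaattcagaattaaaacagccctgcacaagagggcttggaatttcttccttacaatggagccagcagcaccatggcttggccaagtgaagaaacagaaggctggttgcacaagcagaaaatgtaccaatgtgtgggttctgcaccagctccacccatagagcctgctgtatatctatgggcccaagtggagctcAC
Ear2: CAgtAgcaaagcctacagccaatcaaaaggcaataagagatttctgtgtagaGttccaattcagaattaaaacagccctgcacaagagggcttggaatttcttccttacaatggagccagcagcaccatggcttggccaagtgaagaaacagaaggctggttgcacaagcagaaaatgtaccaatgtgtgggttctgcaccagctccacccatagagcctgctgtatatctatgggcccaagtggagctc
Rnase2a: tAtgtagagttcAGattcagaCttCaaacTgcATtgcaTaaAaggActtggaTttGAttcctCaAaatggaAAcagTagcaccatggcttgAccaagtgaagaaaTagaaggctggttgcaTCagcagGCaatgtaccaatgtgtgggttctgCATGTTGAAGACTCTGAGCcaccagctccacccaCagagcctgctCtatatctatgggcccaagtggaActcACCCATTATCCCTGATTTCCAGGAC

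Upstream of Ear1 and Ear2, 2 of 248 aligned bases differed (99.2% identity). Ear2 and Rnase2a differed at 28 of 206 aligned bases (86.4%), with 19 gap bases besides. The likeness reached into the transcripts only in part. In the last 500 bases of the annotated transcripts, where 3′ reads fall, 11 of the 559 stretches of 90 bases in Ear1 were identical to a stretch of Ear2, and 32 were identical to one of Ear10. Of the 411 stretches in Ear2, 11 were shared with Ear1 and 36 with Ear10. Counts of Ear1 and Ear2 are therefore uncertain to the extent that reads came from those stretches, while none was shared with Rnase2a. Ear10 itself gave 1 and 3 UMIs in alveolar macrophages.

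A search of both strands of these 250-base stretches, which were found for all 8 genes, placed TTGCNNAA, the core letters of a C/EBP motif, 92 bases before the start of Ear1, 90 before that of Ear2 and 174 before that of Fabp1. That motif was present before 3 of the 8 genes and before 9.55% of 27025 promoters, and it was also found before Ear10 and Rnase2a. AGGTCA, the core letters of nuclear receptor sites, occurred before Fabp1 alone of the 8, at 67 and 9 bases, and before 13.8% of promoters. CACGTG, an E-box, occurred before Hebp1 (58 bases; 6.05% of promoters) and AGGAAGT, an ETS motif, before Tfec (71 bases; 7.8%). AAATCAC, the core of a GFI1 motif, was in none of the 8 stretches and in 2.71% of promoters. These matches of letters describe the windows searched and no more.

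All 8 genes were well counted in alveolar macrophages of both libraries, and 7 of the 8 stood higher under the label GFI1 KO, by 1.1 to 1.29 times. The ribonucleases come first. For Ear1, 19437 UMIs gave a level of 612 CPM (604 to 621) under GFI1 KO, and 33192 UMIs gave 527 CPM (522 to 533) under WT. The Ear1 level was thus 1.16 times as high (1.14 to 1.18). For Ear2, 45709 UMIs gave 1440 CPM (1427 to 1453) under GFI1 KO, and 78779 UMIs gave 1252 CPM (1243 to 1261) under WT, which put it 1.15 times as high (1.14 to 1.16). Both near copies thus differed between the libraries in the same direction and by about the same factor.

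Fabp1 encodes the liver-type fatty-acid-binding protein, which carries long-chain fatty acids inside the cell. It reached 541 CPM (533 to 550) under GFI1 KO against 443 CPM (438 to 448) under WT, and the quotient was 1.22 (1.2 to 1.25). Hebp1 encodes a heme-binding protein of the cytosol. Its level was 383 CPM (376 to 390) under GFI1 KO, which was 1.13 times (1.11 to 1.16) the 338 CPM (333 to 342) under WT. Gal encodes the precursor of the neuropeptide galanin, and it was counted at 104 CPM (100 to 108) against 84 CPM (81.8 to 86.3), or 1.24 times as high (1.18 to 1.29).

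Tfec, a transcription factor of the MiT/TFE family that is made mainly in macrophages, was the only one of the 8 with a ratio below 1. Its 182 CPM (177 to 187) under GFI1 KO were 0.961 times (0.931 to 0.991) the 189 CPM (186 to 193) under WT. Nol4l, a gene named for its likeness to the nucleolar protein gene Nol4, was counted at 129 CPM against 117 CPM, which is 1.1 times as high (1.06 to 1.14). Tc2n, which encodes a protein with tandem C2 domains, had the highest ratio of the 8, at 99.4 CPM (95.9 to 103) against 77 CPM (74.8 to 79.2), or 1.29 (1.23 to 1.35).

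None of the 8 reached a ratio of 2 in either direction. Among the 13854 genes with at least 30 UMIs in alveolar macrophages, 0.621% had a ratio of at least 2, 12.3% a ratio of at most 0.5 and 40.9% a ratio above 1. Because low-count genes weigh on those shares, the 8 were also set beside the 2653 genes with at least 8000 UMIs. The median ratio of the 8 was 1.16, and that of the 2653 was 0.996, with quartiles of 0.94 and 1.06. Of those genes, 99.4% had a lower ratio than Tc2n, 98.4% than Gal, 98% than Fabp1, 94% than Ear1, 92.9% than Ear2 and 90.5% than Hebp1. Nol4l stood above 83% of them and Tfec above 33.4%.

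**Figure D1:**
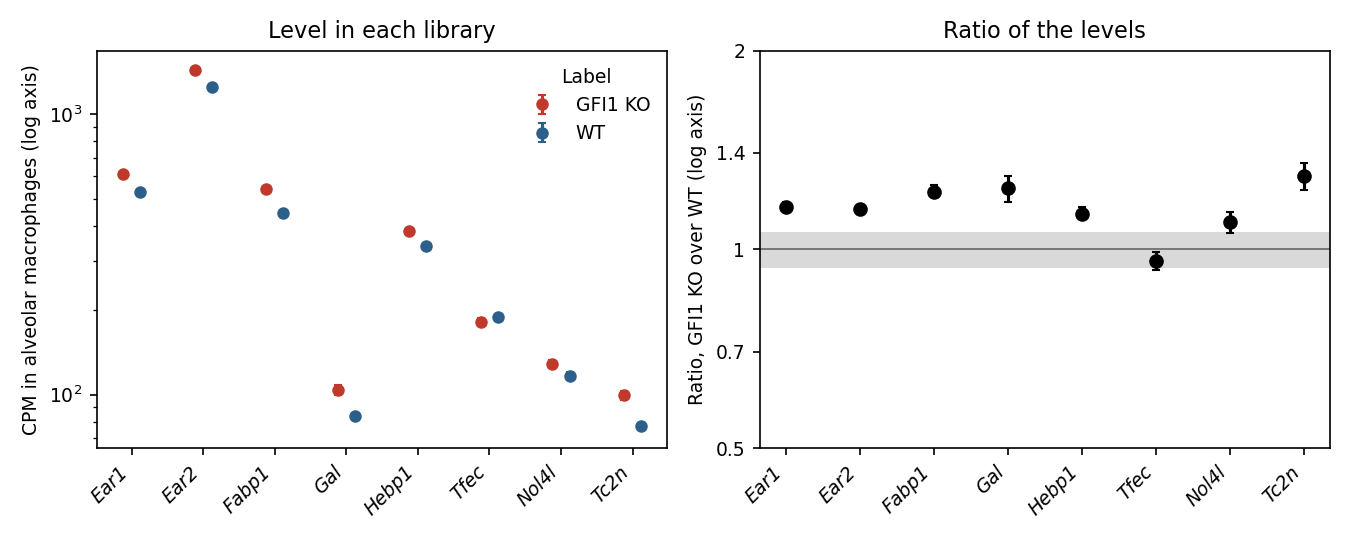
Left: level of each of the 8 genes in alveolar macrophages (CPM, log axis) in the libraries labelled GFI1 KO and WT. Right: ratio of the 2 levels (GFI1 KO over WT, log axis). Bars are 95% intervals for counting error, and the grey band spans the middle 50% of the 2653 genes with at least 8000 UMIs (0.94 to 1.06). The ratios of 7 genes lie above the band and that of Tfec, 0.961, lies inside it.

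Depth moved with these levels. The alveolar macrophages had medians of 13506.5 and 14304 UMIs, and the level of Ear2 in the shallowest and the deepest 25% of cells was 1920 and 1075 CPM (GFI1 KO) and 1777 and 931 CPM (WT). Ratios were therefore also taken among cells of like depth. In cells with 8000 to 12000 UMIs that of Ear1 was 1.09, of Ear2 1.11, of Fabp1 1.21, of Gal 1.22 and of Tc2n 1.18. In cells with 12000 to 16000 UMIs Ear1 stood at 1.15, Ear2 at 1.08, Fabp1 at 1.17 and Tc2n at 1.38. In cells with 16000 to 24000 UMIs Ear1 stood at 1.16, Ear2 at 1.09, Fabp1 at 1.08, Gal at 1.07 (0.967 to 1.19) and Tc2n at 1.28. The side of 1 depended on depth for Nol4l, at 1.13, 1.07, 1.12 and 0.983 (0.898 to 1.07) from the shallowest to the deepest of 4 bins between 4000 and 24000 UMIs, and for Tfec, at 0.834, 0.916, 1.01 (0.953 to 1.06) and 0.899. Ear1 alone of the Ear pair was below 1 in the shallowest cells, those with 4000 to 8000 UMIs, where its ratio was 0.949 (0.891 to 1.01) and that of Ear2 was 1.05 (1.01 to 1.09). In the same shallowest cells Fabp1 stood at 1.14 (1.06 to 1.23), Gal at 1.13 (0.956 to 1.34) and Tc2n at 1.07 (0.892 to 1.27). The part that depth plays in these ratios beyond this was not tested.

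The share of cells with a UMI was higher under GFI1 KO for most of the 8 genes once every alveolar macrophage was thinned to 3000 UMIs, which left 2625 and 4790 cells and set aside 41 and 59 shallower ones. Ear1 was then detected in 73.8% (GFI1 KO) and 68% (WT) of cells, Ear2 in 94.3% and 92%, Fabp1 in 60.1% and 53.2% and Hebp1 in 66.9% and 61.3%. Gal was detected in 25% and 20.4%, Tc2n in 24.8% and 19.2%, Nol4l in 29.3% and 27.4% and Tfec in 41.2% and 41.1%. Before thinning these shares ran from 54.6% (Gal) to 98.9% (Ear2) in cells labelled GFI1 KO and from 50.6% (Tc2n) to 97.7% (Ear2) in those labelled WT. In B-like cells, which should lack these genes, Ear2 was found at the same depth in 2.12% and 2.6% of 472 and 1965 cells and Ear1 in 0.212% and 1.02%.

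The families of the 8 genes and the pathways around them were read in the same cells. Of the other ribonucleases, Ear6 had 7.72 CPM under GFI1 KO and 10.5 CPM under WT, so 0.735 times as much (0.632 to 0.852), and Rnase2b gave 76 and 114 UMIs, a ratio of 1.32 (0.976 to 1.78). Ear14 gave 0 and 1 UMIs, and Rnase2a is described below. Fabp4 and Fabp5, the fatty-acid-binding proteins that are abundant in these cells, had ratios of 1.05 and 1.07, while Fabp3 and Fabp7 gave at most 11 UMIs. Of the MiT/TFE factors, which switch on lysosomal and melanocyte genes, Mitf stood at 506 and 515 CPM (ratio 0.982), Tfe3 at a ratio of 1.08 and Tfeb at 1.16. The galanin receptors were not detected in alveolar macrophages beyond 1 UMI of Galr2 in those labelled WT. Hebp2 gave 1 and 28 UMIs and Nol4 gave 0 and 4.

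No list around these genes moved as a whole past a ratio of 2. Of 17 genes of alveolar macrophage identity 11 had a ratio above 1 and 6 below, with a median of 1.05. Among them were Car4, a carbonic anhydrase (1.2), Siglecf, a sialic acid receptor (1.17), and Bhlhe40, a transcriptional repressor (0.849). Of 17 lipid-handling genes 10 were above 1 and 7 below (median 1.01). Of 16 lysosome genes known as MiT/TFE targets 11 were above and 5 below (1.06), and of 13 heme and iron genes with at least 30 UMIs 8 were above and 5 below (1.08). In the last list Cd163, the haemoglobin scavenger receptor, gave 3 and 40 UMIs, a ratio of 0.149 (0.0294 to 0.467), and was the single gene of these 4 lists past a ratio of 2 in either direction. The 8 marker genes of the rule had a median of 0.984.

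In the other myeloid cells the Ear pair parted. Ear2 was well detected in nonclassical monocyte-like cells, the patrolling monocytes of blood vessels, where it reached 372 CPM (355 to 389) and 380 CPM (358 to 403). The first was 0.978 times the second (0.907 to 1.06). Of these cells 72% and 70.6% held an Ear2 UMI. Ear1 stood there at 1.87 and 3.85 CPM, close to its level in B-like cells (1.57 and 3.44 CPM). Ear2 in the B-like cells stood at 7.55 and 13.8 CPM. Ear2 was also found in dendritic cell-like cells, at 60.3 CPM in 13 cells labelled GFI1 KO and 353 CPM in 91 cells labelled WT, and in C1q-positive macrophage-like cells, at 71.8 and 140 CPM in 18 and 125 cells.

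Classical monocyte-like cells held little of most of the 8 genes. Ear2 had a level of 33.1 CPM there under GFI1 KO and 47.9 CPM under WT (0.69 times as high, 0.561 to 0.859), and Ear1 gave 35 and 6 UMIs, or 0.831 and 3.02 CPM, below its level in the B-like cells of the same library. Hebp1 gave 817 UMIs in the 4227 cells labelled GFI1 KO and 12 in the 276 labelled WT, or 19.4 and 6.05 CPM, a ratio of 3.21 (1.83 to 6.23). Beside the monocyte markers Vcan and F13a1, Prtn3 set this class apart from other cells (219 against 6.07 CPM with the libraries pooled). The makeup of this class differed between the libraries: the dividing-cell genes Ube2c and Top2a stood at 19.4 (6.63 to 94.3) and 6.39 (2.92 to 17.5) times their WT level, Chil3 at 3.24 times, and Mrc1 and Cd209a at 0.0776 and 0.0985 times. Its part in the ratios of the 8 genes in these cells was not tested. In B-like cells Hebp1 stood at 0.944 and 1.99 CPM. The Tfec level in the classical monocyte-like cells was 18 CPM against 15.6 CPM (1.15 times, 0.805 to 1.71), whereas B-like cells had 0.629 and 0.688 CPM. C1q-positive macrophage-like cells held Hebp1 at 63.8 and 40.1 CPM, Tfec at 63.8 and 63.4 CPM and Nol4l at 39.9 and 37 CPM. Outside the myeloid cells Tc2n was found in epithelial-like cells, at 80.9 and 50.5 CPM in 19 and 54 cells. Hebp1 was found in stromal-like cells, at 53.3 and 59.6 CPM in 21 and 341 cells. Nol4l was found in endothelial-like cells, at 25 and 29.2 CPM in 119 and 2541 cells, and in NK-like cells, at 7.24 and 22 CPM.

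**Figure D2:**
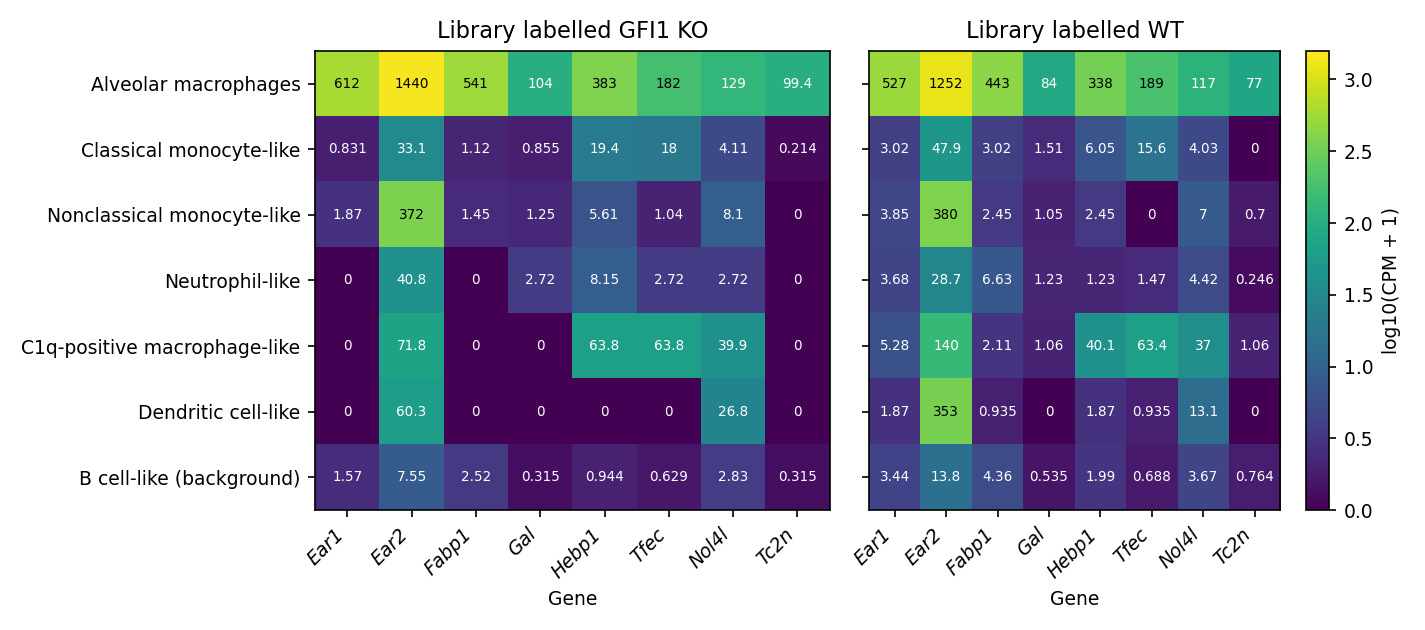
Level of the 8 genes, as log10(CPM + 1) in colour, in the myeloid classes and B-like cells (rows) of the libraries labelled GFI1 KO and WT. All 8 are high in alveolar macrophages, and Ear2 alone is also high in nonclassical monocyte-like cells (372 and 380 CPM).

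The correlations among the 8 genes across alveolar macrophages were uneven. Across cells thinned to 3000 UMIs, with Pearson's r of log(1 + UMIs) given as a description of cells that share a library, Ear1 and Ear2 had an r of 0.308 in 2625 cells labelled GFI1 KO and 0.348 in 4790 cells labelled WT. Fabp1 went with both: its r with Ear1 was 0.143 and 0.209 and its r with Ear2 was 0.215 and 0.187. Hebp1 was next, at 0.114 and 0.122 with Ear1 and 0.120 and 0.155 with Ear2. These 5 of the 28 pairs were the only ones at 0.1 or above in both libraries, and 3 to 7 pairs were in 10 repeated draws of the thinning. How often pairs of other genes of like level reach 0.1 was not counted, so the 5 have no background beside them. The 10 pairs among Gal, Hebp1, Tfec, Nol4l and Tc2n had values from 0.005 to 0.058 (GFI1 KO) and from -0.008 to 0.055 (WT). Counts this sparse do not settle whether these genes vary together. Over the 10 draws, r was 0.01 or above throughout for Tfec with Tc2n, at 0.02 to 0.08 (GFI1 KO) and 0.02 to 0.07 (WT). The same held for Nol4l with Tc2n (0.01 to 0.06 and 0.02 to 0.07), Hebp1 with Nol4l (0.02 to 0.05 and 0.02 to 0.07) and Gal with Hebp1 (0.01 to 0.06 and 0.02 to 0.05). Each draw thinned the same cells, so the draws are not repeats of the measurement.

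At a depth of 8000 UMIs, with 2231 and 4206 cells, the pairs among Ear1, Ear2 and Fabp1 stood out more. Ear1 and Ear2 then had an r of 0.449 and 0.461, Ear1 and Fabp1 one of 0.197 and 0.290 and Ear2 and Fabp1 one of 0.290 and 0.252. Ear2 reached 0.167 and 0.233 with Hebp1 and 0.168 and 0.165 with Gal, but 0.083 and 0.101 with Tfec. Spread from cell to cell was read as the variance over the mean, which itself tends to be higher at a higher mean. The variance of thinned UMIs over their mean was 3.25 and 3.08 for Fabp1, 2.37 and 2.6 for Ear2 and 1.97 and 2.15 for Ear1, and it lay between 1.14 and 1.33 for the other 5. The median over all genes with a mean of at least 0.2 thinned UMIs was 1.09 and 1.11, and 90% of them were below 1.46 and 1.57. By another measure the order differed: the 10% of cells with the most UMIs of a gene held 25.1% and 27.2% of the UMIs of Ear2, the least of the 8, 42.5% and 44.5% of those of Fabp1, and 52.5% and 59.6% of those of Gal. That share tends to be higher at a lower mean, so it does not rank the genes by spread. The mean was 4.64 and 4.11 thinned UMIs for Ear2 but 0.315 and 0.256 for Gal.

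**Figure D3:**
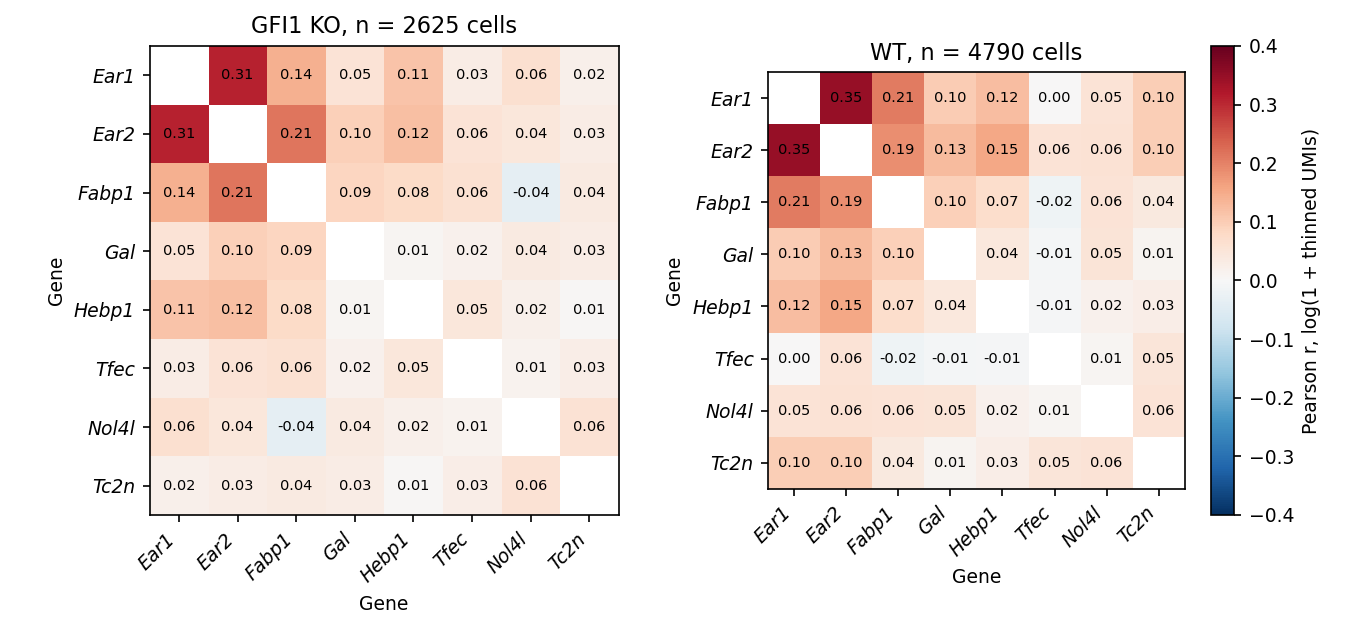
Pearson's r of log(1 + UMIs) for each pair of the 8 genes across alveolar macrophages thinned to 3000 UMIs, in the libraries labelled GFI1 KO (2625 cells) and WT (4790 cells). Ear1, Ear2 and Fabp1 form the strongest corner (0.143 to 0.348), and pairs among Tfec, Nol4l and Tc2n are near 0.

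Cells were then split by their thinned UMIs of Ear1 and Ear2 together, with 0 to 2, 3 to 5, 6 to 8 and 9 or more UMIs. Mean Fabp1 went from 1.06 to 1.4, 1.81 and 2.34 UMIs per cell over these 4 levels under GFI1 KO and from 0.884 to 1.22, 1.61 and 2.03 under WT. At each level the cells labelled GFI1 KO thus held more Fabp1 than those labelled WT. Hebp1 went from 0.979 to 1.47 (GFI1 KO) and from 0.805 to 1.29 (WT), and Gal from 0.219 to 0.399 and from 0.158 to 0.36. Tfec went from 0.511 to 0.634 (GFI1 KO) and from 0.567 to 0.641 (WT). Tc2n went from 0.267 to 0.331 and from 0.14 to 0.301, and Nol4l from 0.308 to 0.483 and from 0.309 to 0.455. Depth, which thinning evens out in the counts but not in the cells, also went with the split: the median total was 15398 UMIs at the lowest level and 12068.5 at the highest in cells labelled GFI1 KO, and 15984 and 12358.5 in those labelled WT.

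**Figure D4:**
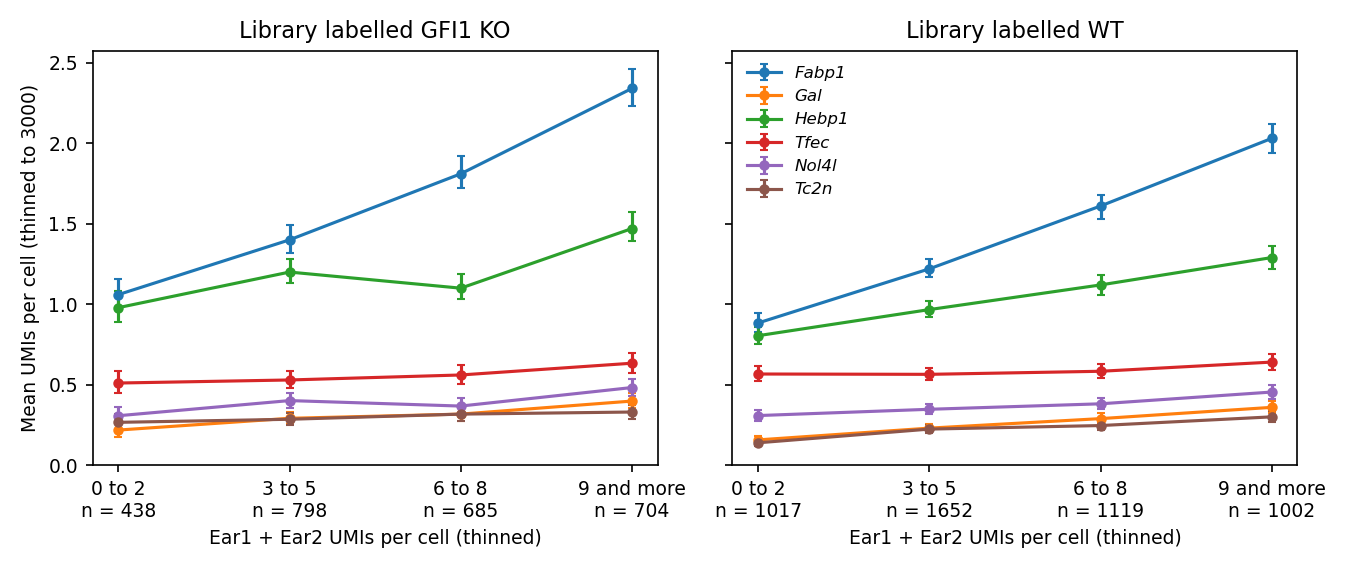
Mean UMIs per cell (thinned to 3000) of the other 6 genes in alveolar macrophages with 0 to 2, 3 to 5, 6 to 8 and 9 or more Ear1 and Ear2 UMIs, in the libraries labelled GFI1 KO and WT, with 95% intervals for counting error. Fabp1 climbs at every step in both libraries (1.06 to 2.34 and 0.884 to 2.03), while Tfec stays between 0.511 and 0.641 at the ends.

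By r across the thinned cells in both libraries, 6747 genes, the 8 included, were compared with the sum of Ear1 and Ear2. Outside the 8, the genes most like that sum were led by Lyz2, lysozyme (0.286 in cells labelled GFI1 KO, 0.443 in WT), Chil3, a chitinase-like protein and a marker in the rule (0.299, 0.252), and Abcg1, a cholesterol exporter (0.242, 0.295). Reep5 (0.221, 0.254), Cd9, a tetraspanin (0.204, 0.293), Laptm5, a lysosomal membrane protein (0.183, 0.313), Ltc4s, leukotriene C4 synthase (0.192, 0.220), and Lpl, lipoprotein lipase (0.192, 0.217), followed. So did Tmsb4x (0.210, 0.244) and Myl6 (0.185, 0.180). Mean Chil3 climbed over the levels of Ear1 and Ear2 under GFI1 KO, at 27.2, 31.6, 32.7 and 36.4 UMIs per cell. Under WT it did not, at 41.5, 39.9, 36.8 and 42. Of all genes compared 0.874%, or 59, had an r of at least 0.1 in both libraries. Ear1 (0.646, 0.674) and Ear2 (0.906, 0.907), which are parts of the sum, count among the 59. Of the 6 remaining members Fabp1 (0.230, 0.230), Hebp1 (0.140, 0.170) and Gal (0.10, 0.139) did too. Nol4l (0.062, 0.068), Tfec (0.059, 0.043) and Tc2n (0.032, 0.116) did not. Counting noise lowers r more for genes at a low level: Tc2n stood at 99.4 and 77 CPM, Lyz2 at 12800 and 9980 CPM. Of the 50 genes most like the Ear pair in each library 35, or 70% of each list, were in both.

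Genes that ran against the Ear pair were Ifitm3, an interferon-induced antiviral protein (-0.193, -0.206), Il1b, the inflammatory cytokine interleukin-1β (-0.186, -0.189), S100a6 (-0.170, -0.158) and Crip1 (-0.156, -0.201). Mean Il1b was 2.08 UMIs per cell at the lowest level of Ear1 and Ear2 and 0.679 at the highest in cells labelled GFI1 KO, and 2.21 and 0.664 in those labelled WT. Dividing cells were also found more at the lowest level, as cells with at least 2 of 8 cycling genes made up 19.6% there and 7.39% at the highest (GFI1 KO) and 20.1% and 6.99% (WT). In cycling alveolar macrophages, 302 and 616 cells, Ear2 stood at 0.715 and 0.719 of its level in the others, Ear1 at 0.773 and 0.783 and Fabp1 at 0.8 and 0.773. Gal stood at 1.05 and 0.945 and Nol4l at 0.941 and 1.01. The cycling cells were deeper, with medians of 17335.5 and 18415.5 UMIs against 13251.5 and 13876 in the others. Their Ear2 level was 1074 and 943 CPM. In the deepest group of alveolar macrophages described above, Ear2 stood at 1075 and 931 CPM, at medians of 19109 and 21020.5 UMIs. Cycling and other cells of like depth were not compared, so the part of depth in these ratios was not tested.

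A small group of alveolar macrophages labelled WT was low in Fabp1, Gal, Ear1 and Tc2n and, less so, in Nol4l. It was found after the values were seen, through Rnase2a, the family member whose upstream sequence is given above. Rnase2a gave 979 UMIs in alveolar macrophages labelled WT and 1 in those labelled GFI1 KO (15.6 and 0.0315 CPM, a ratio of 0.00203 with an interval of 5.12e-05 to 0.0113). Of the 979 UMIs, 861 (87.9%) came from 96 cells with at least 3 each, and 1 cell held 51. These 96 cells made up 1.98% (1.61 to 2.41) of the alveolar macrophages labelled WT. Among those labelled GFI1 KO 0 of 2666 cells reached 3 UMIs, which allows a share of up to 0.113% by a limit of 3 counts and up to 0.138% by the Clopper-Pearson interval.

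In the 96 cells Fabp1 stood at 20 CPM against 453 CPM in the other 4753 alveolar macrophages labelled WT, a ratio of 0.0441 (0.0297 to 0.0629). Ear1 stood at 43.3 against 539 CPM (ratio 0.0802, 0.0619 to 0.102), Gal at 4.66 against 86 CPM (0.0542, 0.0218 to 0.112) and Tc2n at 6.66 against 78.7 CPM (0.0846, 0.0405 to 0.156). Nol4l was lower too, at 31.3 against 120 CPM (0.262, 0.192 to 0.348). Ear2, whose upstream sequence is nearly that of Ear1, stood at 1043 against 1257 CPM (0.83, 0.789 to 0.872), and Hebp1 at 248 against 340 CPM (0.731, 0.658 to 0.809). Tfec was higher, at 284 against 187 CPM (1.52, 1.38 to 1.67).

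Thus 5 of the 8 genes stood at a ratio of at most 0.5 in these cells, as did 18.4% of 13449 genes. Among the 2910 genes with at least 4846 UMIs, of which 247 had a ratio of at most 0.5 and whose median was 0.898, Fabp1 had the lowest ratio of all, Gal ranked 2, Ear1 ranked 4, Tc2n ranked 5 and Nol4l ranked 52 from the lowest. Hebp1 ranked 816, Ear2 ranked 1190 and Tfec ranked 2693. At 3000 UMIs a cell, Ear1 was detected in 13.5% (7.41 to 22) of the 96 cells and 69.1% of the others, Fabp1 in 3.12% and 54.2%, and Ear2 in 89.6% and 92.1%.

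**Figure D5:**
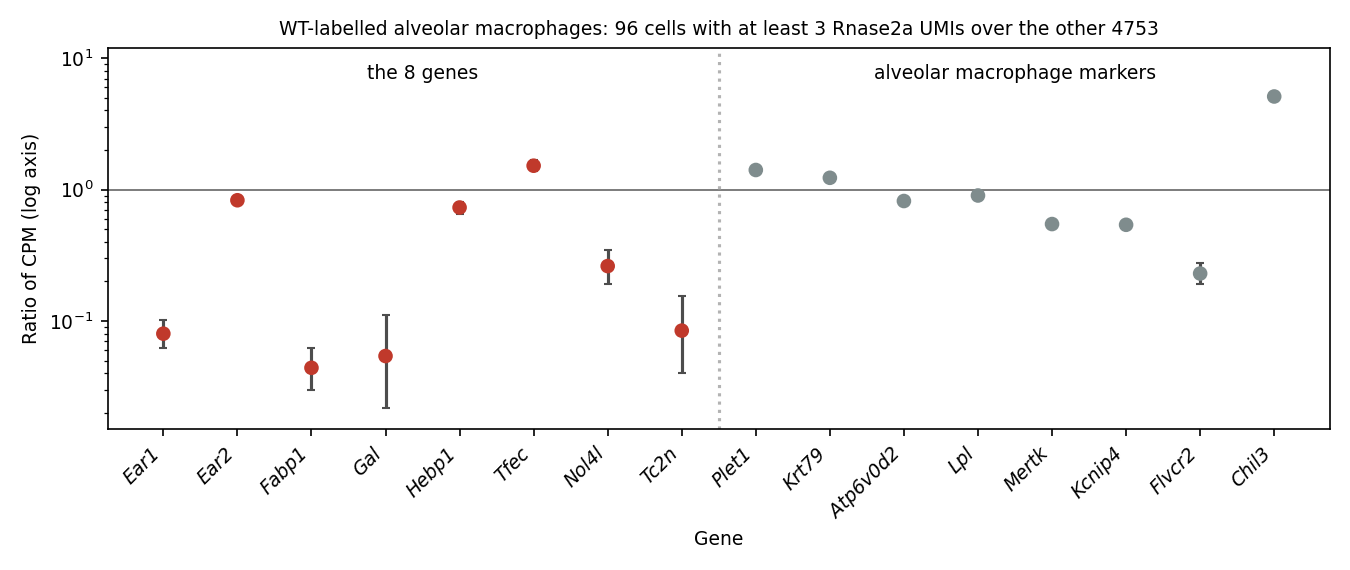
Ratio of the levels (CPM, log axis) of the 8 genes and the 8 marker genes of the rule in the 96 alveolar macrophages labelled WT with at least 3 Rnase2a UMIs over the other 4753, with 95% intervals for counting error. Fabp1, Gal, Ear1 and Tc2n lie between 0.0441 and 0.0846, whereas Ear2 lies at 0.83, Hebp1 at 0.731 and Tfec at 1.52.

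The 96 cells carried the alveolar macrophage markers unevenly. Of them, 78 had at least 7 of the 8 rule markers and 42 had all 8, against 4482 and 3492 of the other 4753. Chil3 stood at 61306 CPM against 11999 (ratio 5.11), Plet1 at a ratio of 1.41, Krt79 at 1.23 and Lpl at 0.902. Lower still were Atp6v0d2 (0.819), Mertk (0.547), Kcnip4 (0.54) and Flvcr2, a heme and choline transporter (0.23). Siglecf, which marks resident alveolar macrophages, stood at 0.286 and Itgax, which encodes CD11c, at 2.26. The CD11c tag had a median of 2295.5 against 907, and the CD11b tag one of 15.5 against 5. Genes far higher in these cells were Ccl24, an eosinophil-attracting chemokine (837 against 5.23 CPM), Ccl17, a chemokine for T cells (1744 against 23.9 CPM), Arg1, arginase (438 against 4.41 CPM), Mmp12, the macrophage elastase (2327 against 33.6 CPM), and Fbp1, a gluconeogenic enzyme (861 against 6.36 CPM). Irf4, a transcription factor, stood at 143 against 7.23 CPM. Since these cells were chosen on Rnase2a in the same counts, the values describe them and test nothing.

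Depth, doublets and cell division of the 96 cells were read beside these values. Their median was 17449 UMIs against 14234, Scrublet called 1.04% of them doublets against 11.4%, and 12.5% were cycling against 12.7%. Markers of another lineage (at least 4 of 1 panel) were present in 8 of them, and Cdh5, an endothelial gene, gave 1 UMI. Chosen instead by at least 20 UMIs summed over Ccl17, Ccl24, Mmp12, Fbp1 and Arg1, again after seeing the values, 141 cells labelled WT and 1 labelled GFI1 KO were found, 82 of them among the 96. In the 141 cells Fabp1 stood at a ratio of 0.0886, Gal at 0.1, Tc2n at 0.143, Ear1 at 0.147 and Nol4l at 0.293, with Hebp1 at 0.687, Ear2 at 0.79 and Tfec at 1.32.

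Signal of other cell types in the alveolar macrophages moved with the libraries. The summed level of 8 endothelial markers there was 69.7 CPM (GFI1 KO) and 424 CPM (WT), and 1 and 310 alveolar macrophages (6.39% of those labelled WT) had at least 4 endothelial markers. The summed classical monocyte markers stood at 1149 and 978 CPM, the neutrophil markers at 278 and 412 CPM and the stromal markers at 0.819 and 73.9 CPM. Their part in the ratios of the 8 genes, beyond the exclusions given with the processing, was not tested.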

How the data were processed

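Lung cells labelled GFI1 KO and WT (1 library each) had been captured with 10x 3′ chemistry and aligned and counted with Cell Ranger 9.0.1 on GRCm39, as the submitters' processing notes name them. The files deposited by the authors hold UMI counts per gene and per surface tag in filtered cells (10700 and 19515 cells), with no coordinates. As in the study, cells with under 500 UMIs, under 200 genes or over 20% mitochondrial UMIs, and ribosomal, mitochondrial and Gm- genes (9548), were left out. The files held 116825535 and 162599284 gene UMIs, and the genes left out took 19% and 16.5% of gene UMIs. Cells were classed by panels of markers (at least 4 of 8, or 3 for dendritic cells and 3 of 6 for eosinophils), with thresholds set after the data were seen, and named X-like. Each class needed more markers of its panel than of any other class panel. A myeloid class also needed at least 4 general myeloid markers and fewer than 3 markers of any other lineage. No cluster was used. Levels are summed UMIs divided by the class's total UMIs (CPM) with exact Poisson intervals, ratios have exact conditional binomial intervals and shares Clopper-Pearson intervals. For shares and correlations each cell was thinned to 3000 UMIs. With 1 library per label no test was made. Doublets were kept and were also called with Scrublet (360 and 1166 cells) in scanpy 1.11.5. The genes named are the 8, their families and pathway lists; members and lists were chosen with earlier results of these data known. The computation of levels, ratios and correlations was tested on simulated data. Alternatives were the number of markers, thinning, cell and gene filters, doublets, cells with other markers, cycling cells, scaling, weighting of cells, subtraction of free RNA, rank correlation and, chosen after seeing the data, a depth of 8000 UMIs, cells of 8000 to 16000 UMIs, 10 repeated draws, and leaving out cells with Rnase2a or with 4 markers of 1 other lineage.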

Additional observations from a re-analysis of the deposited data

Results flagged for a closer look

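The ratios of Ear1 and Ear2 between the libraries differed in direction between cell types. In classical monocyte-like cells the level labelled GFI1 KO over that labelled WT was 0.275 (0.114 to 0.799) for Ear1 and 0.69 (0.561 to 0.859) for Ear2, against 1.16 and 1.15 in alveolar macrophages. The difference was not tested, since there is 1 library per label. Ear1 rests on 35 and 6 UMIs there, at 0.831 and 3.02 CPM, below its 1.57 and 3.44 CPM in B-like cells, so that both values are at the level of free RNA. Ear2 rests on 1392 and 95 UMIs, at 33.1 and 47.9 CPM against 7.55 and 13.8 CPM in B-like cells.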

How the results depend on the processing

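The count of 7 of the 8 genes with a ratio above 1 was found under all 15 alternatives, and under these no ratio changed direction. The depth bins described above were not among the alternatives. In single bins Ear1 stood at 0.949 (4000 to 8000 UMIs), Nol4l at 0.983 (16000 to 24000 UMIs) and Tfec at 1.01 (12000 to 16000 UMIs), each with an interval that held 1. Of these alternatives 1, dropping the minimum of UMIs per gene, could not change the ratios of the 8 and repeats the main values. Over 16 settings, the main one included, the ratio of GFI1 KO over WT lay between 1.09 and 1.2 for Ear1, 1.04 and 1.18 for Ear2, 1.1 and 1.26 for Fabp1, 1.06 and 1.27 for Gal, 1.08 and 1.16 for Hebp1, 1.05 and 1.13 for Nol4l, 1.17 and 1.33 for Tc2n and 0.889 and 0.986 for Tfec. The difference in the share of alveolar macrophages (GFI1 KO minus WT), 0.33 percentage points, became -0.95 with at least 3 of 8 markers. It became -3.23 with the rule applied after thinning, where the share was of the 9460 and 15250 cells with at least 3000 UMIs. That rule found 2614 and 4706 alveolar macrophages. Taking those with at least 2 markers of another lineage out of the alveolar macrophages, but not out of the 10495 and 19342 cells in the denominator, gave 1.74. This leaves 903 and 1328 alveolar macrophages, as 1666 and 2941 hold at least 2 epithelial markers. It brings the log2 ratio of Ear2 from 0.20 to 0.06 and of Gal from 0.31 to 0.09. The same done for at least 4 markers of 1 other lineage left 2606 and 4220 and gave 3.01. The direction of the difference thus depends on which cells are counted in the share and in its denominator, and causes beyond that were not tested. Of the summed epithelial markers in alveolar macrophages (577 and 451 CPM), Krt19 gave 438 and 304 CPM and Epcam 89.4 and 73.8 CPM. Krt8, Krt18 and Cldn18 each stayed under 1 CPM. Krt19 had an r of 0.127 and 0.136 with the sum of Ear1 and Ear2. The exclusion by at least 2 markers thus also selects on a gene that goes with the Ear pair, and whether it removed cells of another lineage was not tested. The count of 5 pairs with an r of at least 0.1 in both libraries became 9 with at least 3 of 8 markers, 3 at 1500 UMIs and 9 without thinning. Leaving out a replicate was not possible with 1 library per label, and no paired analysis was possible because the labels give no second sample of either genotype. Depth limits the shares and r of Gal, Tc2n and Nol4l, each detected in under 30% of cells at 3000 UMIs.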
